A study of Mus musculus with 4 samples.

Results

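The 9 genes described here are Bmp4, its receptor gene Bmpr1a, the signal-carrying Smad1, the inhibitory Smad6 and Smad7 and the 4 Id genes. They were taken by name from the 55418 rows of the gene table, and all 9 were among the 18444 genes tested. The choice was made with earlier results of these data known. RNA was sequenced from mouse E14 ESCs, an embryonic stem cell line of strain 12910la as the labels spell it, in 2 wild-type (WT) cultures and 2 Pim3-/- clones, with 1 library each. Both groups grew on gelatin in medium with serum and LIF, and the labels give no further treatment. The Pim3-/- cells had been made with CRISPR/Cas9 guide RNAs against exons of Pim3. Each Pim3-/- library is 1 clone, so that an effect of the genotype and a difference between clones and parental cultures cannot be told apart.

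BMP4 is a secreted ligand of the TGF-beta superfamily. It binds a complex of type I receptors, such as BMPR1A, and type II receptors, which phosphorylates SMAD1, SMAD5 and SMAD9. These enter the nucleus with SMAD4 and switch on genes such as those of the Id family and the inhibitory SMADs, and the latter dampen the signal in turn. Id proteins have a helix-loop-helix domain but no DNA-binding basic region, and they hold back E proteins and other partners by pairing with them. In mouse ESCs, BMP4 or serum together with LIF sustains self-renewal, and Id genes are the known effectors of the BMP signal there.

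In the libraries labelled Pim3-/-, Bmp4 and Bmpr1a were not shown to differ from WT. Id1, Id2, Id3, Smad6 and Smad7 rose, by between 1.89-fold and 7.77-fold. These are 5 of the 9 genes at an adjusted p under 0.05 (quasi-likelihood test of edgeR, p-values adjusted over all tested genes), where 17.6% of all tested genes were called higher. When either WT library was left out, 3 of the 9 were still called higher, Id2, Id3 and Smad7. None of the 9 was called lower, against 16.2% of all tested genes, also at an unadjusted p under 0.05 (0 genes) and by the Wald test of DESeq2 (0 genes). In 6 of the 9, both Pim3-/- libraries lay above both WT libraries, as in 38.3% of all tested genes. The median log2 fold change was 0.92 over the 9 genes and 0.07 over all tested genes. At the expression level of the 9 genes, from 3.52 to 213.5 CPM (counts scaled to library size, mean of the 4 libraries), 11814 genes were tested, with a median of -0.05, and 15.8% of them were called higher.

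The libraries held between 22029427 and 25668307 counts, so that 1 count was worth 0.0375 to 0.0522 CPM after TMM scaling, which sets libraries level on the bulk of genes. Pim3 itself had 4392 and 4953 counts in WT, against 4970 and 4804 in the libraries labelled Pim3-/-, and a count over the whole gene does not test an edit inside an exon, so directions are those between libraries as labelled. TMM factors were 0.828 and 0.883 in WT and 1.17 and 1.17 in the libraries labelled Pim3-/-, and library totals alone raise the log2 fold change of the median gene by 0.45. Under TMM factors 52.1% of all calls were higher, and under library totals 85.8%. Pluripotency markers were abundant in all libraries (summed over 8 genes, 6237 to 10230 CPM), with Pou5f1, Nanog and Dppa5a called lower, Klf4 called higher and 4 not past the test. These calls are those with TMM factors. For Nanog the paper reports the opposite direction in Pim3-/- ESCs, a rise by qPCR and western blot. It also reports that Oct4 (Pou5f1) and Sox2 expression was not disrupted. The difference was not examined here. Markers of primitive endoderm, an extraembryonic lineage, moved with the groups. All 9 tested markers of that list of 10 were called higher, where 17.6% of all tested genes were. Of these, Sox17, Sox7 and Dab2 passed the filter on low counts only through the Pim3-/- libraries. The sum over the list was 82.4 and 101 CPM in WT against 411 and 353 CPM. Foxa2, the tenth, had 0 counts in both WT libraries and 5 and 7 in the others. Of 12 markers of 2C-like cells 11 were called higher, with sums of 24.5 and 21.5 CPM against 235 and 73.9 CPM. Among the 12, Zscan4b, Duxf3 and Tcstv1 passed the filter only through the Pim3-/- libraries. Of the other lists, mesoderm had 1 of 5 tested markers called higher and trophoblast 1 of 6. Neuroectoderm had 1 of 3 called lower, and the 2 tested fibroblast markers did not pass. Over all tested genes 17.6% were called higher and 16.2% lower. The marker lists, too, were chosen with earlier results of these data known. What part these cell types have in the results below was not tested. In bulk RNA, a change in the share of cells that express a gene and a change of its level per cell cannot be told apart.

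**Figure D1:**
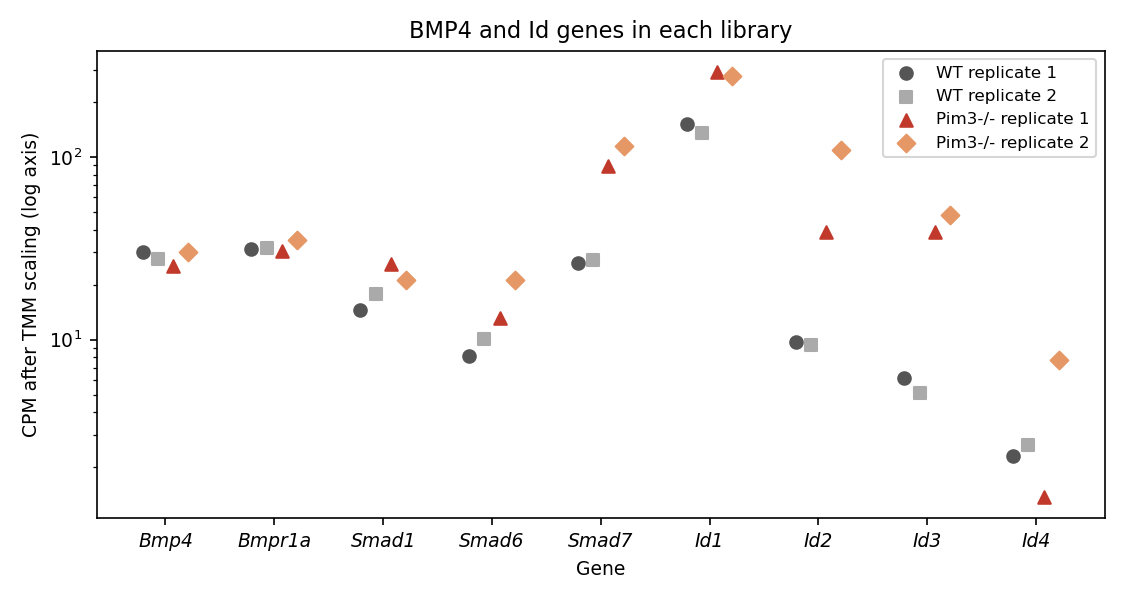
CPM after TMM scaling, on a log axis, of the 9 genes in each of the 4 libraries, WT in grey and Pim3-/- in red and orange, with 1 point per library. Bmp4 and Bmpr1a stay between 25.2 and 35.0 CPM in all libraries, while Id2 and Id3 lie under 10 CPM in WT and at 38.8 CPM or more in both Pim3-/- libraries.

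The ligand gene Bmp4 (chr14:46383520-46390669, minus strand, GRCm38) had 576 and 624 counts in WT, against 673 and 781 in the clones. In scaled values this was 30.1 and 27.6 CPM against 25.2 and 30.3 CPM, so that the groups overlapped. Means were 28.8 CPM ± 1.78 (SD, n = 2) and 27.8 CPM ± 3.59 (SD, n = 2). The log2 fold change was -0.05 (standard error, SE, 0.18, adjusted p = 0.834 in edgeR), with a 95% interval from -0.47 to 0.36. Library totals turned its sign, to 0.40, which is below the median of all genes under that scaling, 0.52. Bmpr1a, which encodes the type I receptor (chr14:34410734-34503341, minus strand), was not shown to differ either. It had 598 and 717 counts in WT, against 810 and 903 in the clones, or 31.2 and 31.7 CPM against 30.3 and 35.0 CPM. Its log2 fold change was 0.06 (SE 0.17, interval -0.33 to 0.45, adjusted p = 0.817 in edgeR), and the groups overlapped. The ratio of Bmp4 to Bmpr1a counts, which needs no scaling between libraries, was 0.963 and 0.870 in WT and 0.831 and 0.865 in Pim3-/-. A short stretch of exon is shared with genes on the opposite strand, 89 bases with Gm15217 for Bmp4 and 290 bases with Gm17110 for Bmpr1a, but these had at most 10 and 28 counts in any library.

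Smad1 (chr8:79338395-79399518, minus strand), the transcription factor that the receptors phosphorylate, had 279 and 403 counts in WT, against 691 and 547 in the clones. That is 14.6 and 17.8 CPM against 25.9 and 21.2 CPM, without overlap, but the difference did not pass the test. The log2 fold change was 0.54 (SE 0.21, interval 0.06 to 1.02), with an adjusted p of 0.0773 in edgeR. The call depended on the scaling and on 1 library. With library totals the value was 0.99 (adjusted p = 0.0105), and without Pim3-/- replicate 2 it was 0.66 (adjusted p = 2.7e-04), in a fit that takes its spread from the WT pair.

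The inhibitory Smad genes were both higher. Smad7 (chr18:75367529-75395935, plus strand), whose product blocks the receptors and recruits ubiquitin ligases to them, had 500 and 619 counts in WT, against 2386 and 2971 in the clones. In CPM it went from 26.1 and 27.3 to 89.4 and 115, so that the lowest Pim3-/- library lay far above the highest WT library. Its log2 fold change was 1.94 (SE 0.19, interval 1.50 to 2.38, adjusted p = 0.00284 in edgeR), a 3.83-fold rise. With 1 library left out in turn the value lay between 1.72 and 2.09. Smad6 (chr9:63953076-64022059, minus strand), whose product competes with SMAD4 for SMAD1, rose less, from 155 and 228 counts to 350 and 547. Its CPM were 8.09 and 10.1 in WT and 13.1 and 21.2 in Pim3-/-, so that the groups did not overlap but the clones differed by 1.62-fold. The log2 fold change was 0.92 (SE 0.28, interval 0.26 to 1.57, adjusted p = 0.0410 in edgeR). This call was lost without WT replicate 1 (0.72, adjusted p = 0.324) and without WT replicate 2 (1.01, adjusted p = 0.164), where WT is a single library assumed to vary like the clones. Without Pim3-/- replicate 2 the log2 fold change was 0.51, in a fit that takes its spread from the WT pair. Counts of Smad7 per count of Smad6 were 3.23 and 2.72 in WT and 6.82 and 5.43 in Pim3-/-, with no overlap.

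**Figure D2:**
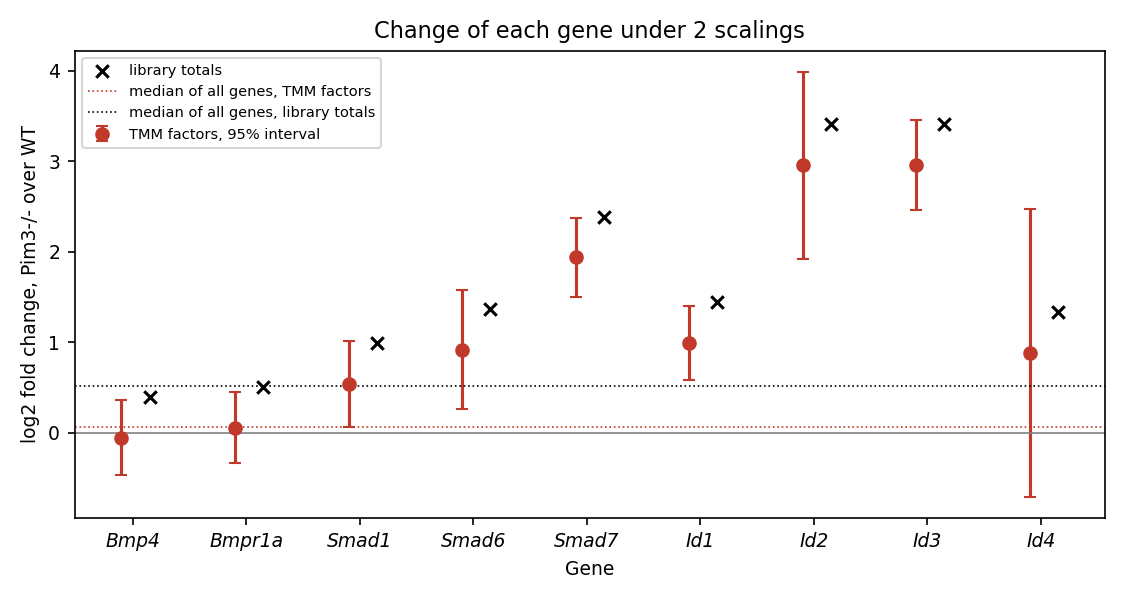
Log2 fold change of Pim3-/- over WT for the 9 genes, with TMM factors (red points, bars are 95% intervals from 2 libraries per group) and with library totals (black crosses), and dotted lines at the median of all tested genes, 0.07 and 0.52. Library totals shift all 9 genes upwards, and Bmp4 and Bmpr1a then lie at 0.40 and 0.51, below the median line of that scaling.

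Per kb of exon, Id1 was the most abundant of the 9 genes in every library. Id1 (chr2:152736251-152737410, plus strand) had 2879 and 3070 counts in WT, against 7766 and 7140 in the clones. Scaled, this was 150 and 136 CPM against 291 and 277 CPM, with little spread inside each group. The log2 fold change was 0.99 (SE 0.18, interval 0.58 to 1.40, adjusted p = 0.00784 in edgeR), a 1.99-fold rise. The call was lost without WT replicate 1 (1.01, adjusted p = 0.113) and without WT replicate 2 (0.83, adjusted p = 0.151), although the size changed little.

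Id3 rose in both clones to similar levels. Id3 (chr4:136143497-136145755, plus strand) had 118 and 115 counts in WT, against 1041 and 1243 in the clones, or 6.16 and 5.08 CPM against 39.0 and 48.2 CPM. Both clones lay over 6 times above the WT libraries, and the log2 fold change was 2.96 (SE 0.22, interval 2.46 to 3.46, adjusted p = 0.00153 in edgeR), a 7.77-fold rise. By its unadjusted p-value Id3 had rank 14 of the 18444 tested genes, and by log2 fold change rank 65 of the 11814 genes at the expression level of the 9. The value lay between 2.74 and 3.09 with 1 library left out in turn.

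Id2 rose as far on average, but unevenly. Id2 (chr12:25093799-25097140, minus strand) had 185 and 213 counts in WT, against 1036 and 2809 in the clones. In CPM the WT libraries were close together, at 9.66 and 9.41, while the clones were at 38.8 and 109, a 2.81-fold difference between clones. Of the 11814 genes in the expression range of the 9 genes, 3.52 to 213.5 CPM, 1.74% differed by more between the clones. The log2 fold change was 2.95 (SE 0.44, interval 1.92 to 3.99, adjusted p = 0.00537 in edgeR). It was 2.01 without Pim3-/- replicate 2 and 3.50 without Pim3-/- replicate 1, so that the size rested on the clone. Id2 was called with any 1 library left out, where the fits without a clone take their spread from the WT pair.

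The change of Id4 was not resolved, and no test compared Id4 with the other Id genes. Id4 (chr13:48261228-48266026, plus strand) had 44 and 60 counts in WT, against 37 and 200 in the clones, or 2.30 and 2.65 CPM against 1.39 and 7.76 CPM. One clone lay below both WT libraries and the other above them, so that the groups overlapped, and 0.279% of the 11814 genes differed by more between the clones. The mean of Id4 sets the lower end of their range, so that those genes had at least its mean CPM and are not matched to it. The log2 fold change of 0.88 (SE 0.68, interval -0.71 to 2.47) did not pass the test (adjusted p = 0.341 in edgeR). Without Pim3-/- replicate 2 it reversed, to -0.85, and without Pim3-/- replicate 1 it was 1.62 (adjusted p = 4.9e-08, with the spread taken from the WT pair). A pair of antisense genes that share exon bases with Id4 had the same order of libraries. A330033J07Rik (82 shared bases) had 21 and 27 counts in WT, against 10 and 71 in the clones, and Gm49291 (171 shared bases) had 21, 28, 10 and 74. Whether the counting used the strand is not stated, so reads of Id4 and of these genes may not be separate. The summed 2C-like markers were higher in Pim3-/- replicate 1 (235 CPM) than in Pim3-/- replicate 2 (73.9 CPM), the reverse of Id2 and Id4, and primitive endoderm markers were at 411 and 353 CPM. Their part in the Id values was not tested.

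**Figure D3:**
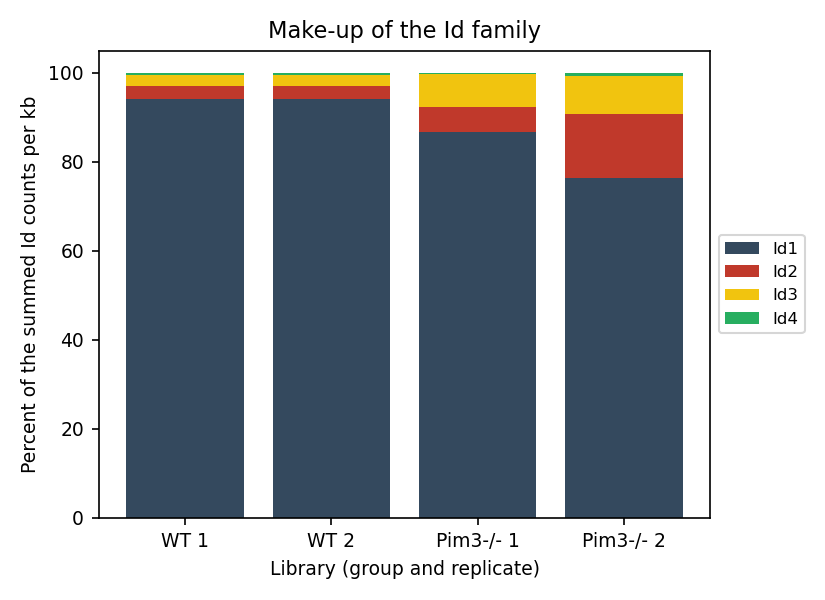
Share of each Id gene in the summed Id counts per kb of exon, in percent, for the 4 libraries (bars, from Id1 at the bottom to Id4 at the top). Id1 makes up 94.2% and 94.1% in WT and 86.8% and 76.4% in the clones.

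Per kb of exon, which allows levels of different genes to be compared, the 4 Id genes together were at 138 and 124 CPM per kb in WT and 289 and 312 CPM per kb in Pim3-/-. Id1 made up 94.2% and 94.1% of this sum in WT, with Id2 at 2.88% and 3.10% and Id3 at 2.50% and 2.28%. In Pim3-/- the share of Id1 was 86.8% and 76.4%, that of Id2 5.51% and 14.3%, and that of Id3 7.54% and 8.62%. Shares inside a library do not depend on scaling, and in none of these 3 genes did the groups overlap. The shares of a library add up to the whole, so that the fall of Id1 is not separate from the rises of Id2 and Id3. In CPM, Id1 itself rose 1.99-fold. Over all tested genes, both Pim3-/- libraries lay above both WT libraries in CPM in 38.3%. Among the 9 genes the WT order of mean levels per kb was Id1 (123 CPM per kb), Bmp4 (12.8), Smad7 (5.91), Bmpr1a (4.95), Id2 (3.91), Id3 (3.14), Smad6 (2.83), Smad1 (2.58 CPM per kb) and Id4 (0.643). The libraries of Id3 and Smad6 overlapped, as did those of Smad6 and Smad1, and the other neighbours in this order were apart. In Pim3-/-, Id2 (30.3 CPM per kb), Id3 (24.4) and Smad7 (22.6) stood above Bmp4 (12.3 CPM per kb), and Id1 remained highest at 245 CPM per kb. There the neighbours Id2 and Id3, Id3 and Smad7, and Smad6 and Bmpr1a overlapped.

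Counts of the target genes were also set against those of Bmp4 within each library, which removes scaling but takes Bmp4 as the measure. Bmp4 had a log2 fold change of -0.05 with TMM factors and 0.40 with library totals. The ratios therefore nearly repeat the fold changes with TMM factors and are no separate evidence. Per count of Bmp4 there were 5.00 and 4.92 counts of Id1 in WT and 11.5 and 9.14 in Pim3-/-. For Id3 the ratio was 0.205 and 0.184 in WT against 1.55 and 1.59, and for Id2 it was 0.321 and 0.341 against 1.54 and 3.60. Smad7 went from 0.868 and 0.992 counts per count of Bmp4 to 3.55 and 3.80, and Smad6 from 0.269 and 0.365 to 0.520 and 0.700. In these 5 ratios and in that of Smad1 (0.484 and 0.646 against 1.03 and 0.700) both Pim3-/- libraries lay above both WT libraries, as in 38.6% of all tested genes set against Bmp4. The ratio of Id4 overlapped, at 0.0764 and 0.0962 in WT against 0.0550 and 0.256. No test was run on these ratios. Relative to Smad1, Id1 was at 10.3 and 7.62 in WT and 11.2 and 13.1 in Pim3-/-, so that this ratio separated the groups by less, while that of Id3 went from 0.423 and 0.285 to 1.51 and 2.27.

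**Figure D4:**
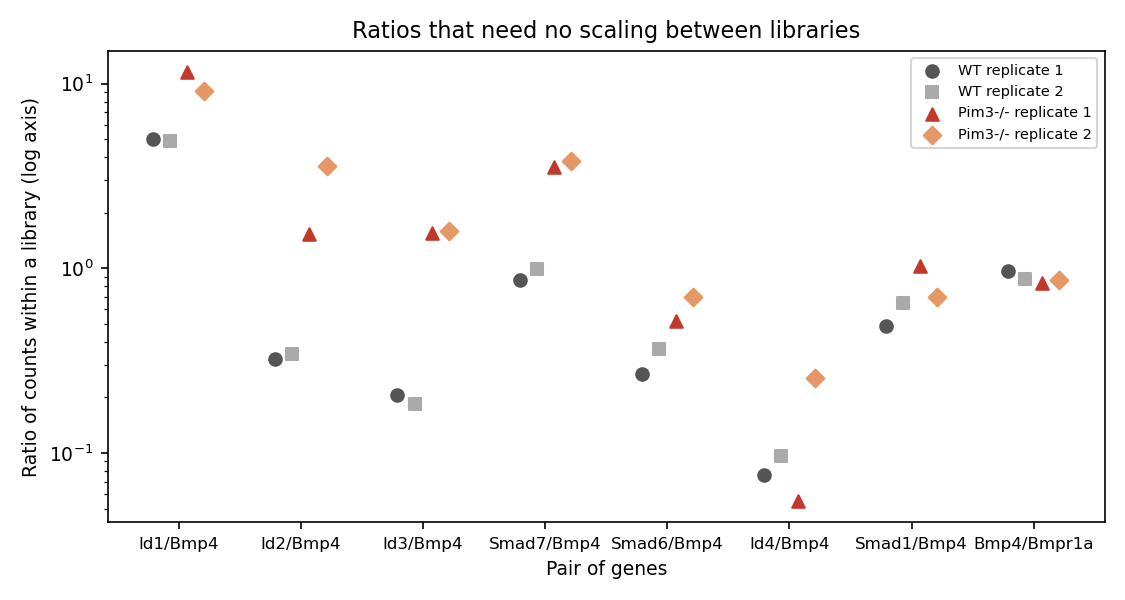
Ratios of counts of the named gene pairs within each library, on a log axis, with 1 point per library (WT in grey, Pim3-/- in red and orange). The ratios of Id1, Id2, Id3, Smad1, Smad6 and Smad7 to Bmp4 are higher in both Pim3-/- libraries, that of Id4 in 1 of them, and Bmp4 to Bmpr1a lies between 0.831 and 0.963 throughout.

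The upstream sequence of some of these genes is shown because Id2 and Smad6 were called higher while Bmp4 and Id4 were not. RefSeq promoters of GRCm38.p6 were found for 7 of the 9 genes, all but Id1 and Smad7. Only the 250 bases before the RefSeq start were searched. Motifs searched were GGCGCC (the GC-rich element bound by SMAD1 and SMAD5), GTCT and its reverse complement AGAC (the SMAD4 element) and CANNTG (the E-box, bound by E proteins). GGCGCC and CANNTG read as the same pattern on both strands, and no match overlapped another in the stretches below. Capitals mark the matches. Bases that GENCODE annotates as exon of the same gene are left out, which leaves 89 of 250 bases for Id2 (chr12:25096254-25096342, minus strand). This Id2 stretch lies inside the gene as GENCODE bounds it (chr12:25093799-25097140), as do the whole windows of Id3 and Bmpr1a. The other stretches are chr9:64022060-64022309 (Smad6, minus strand), chr13:48260866-48261115 (Id4, plus strand) and chr14:46390670-46390919 (Bmp4, minus strand), written 5′ to 3′ on the strand of the gene.
Id2: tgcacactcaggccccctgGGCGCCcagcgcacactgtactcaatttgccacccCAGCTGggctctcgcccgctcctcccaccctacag
Smad6: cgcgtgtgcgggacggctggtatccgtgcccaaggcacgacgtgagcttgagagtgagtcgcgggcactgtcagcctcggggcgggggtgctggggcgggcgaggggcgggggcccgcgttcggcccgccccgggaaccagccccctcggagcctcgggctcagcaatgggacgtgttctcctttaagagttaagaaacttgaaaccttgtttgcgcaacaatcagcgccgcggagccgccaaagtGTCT
Id4: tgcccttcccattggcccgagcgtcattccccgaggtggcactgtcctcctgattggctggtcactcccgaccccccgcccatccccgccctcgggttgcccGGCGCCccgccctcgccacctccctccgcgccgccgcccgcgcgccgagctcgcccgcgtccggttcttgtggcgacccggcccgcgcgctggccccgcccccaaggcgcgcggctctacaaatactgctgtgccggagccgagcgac
Bmp4: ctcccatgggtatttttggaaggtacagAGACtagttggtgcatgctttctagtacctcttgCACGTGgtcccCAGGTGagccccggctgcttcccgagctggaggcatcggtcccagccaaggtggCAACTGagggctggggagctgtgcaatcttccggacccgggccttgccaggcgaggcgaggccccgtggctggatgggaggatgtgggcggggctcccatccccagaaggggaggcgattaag

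GGCGCC was found in 3 of the 7 windows, those of Id2, Id4 and Bmpr1a, and in 9.54% of 27025 promoters of the same length. Of these 3 genes only Id2 had passed the test, and its window lies inside the gene as GENCODE bounds it. GTCT or AGAC was found in 4 of the 7 windows, those of Id2, Id3, Smad6 and Bmp4, against 83.0% of all promoters. In Id2 and Id3 these matches lay in bases annotated as exon, which were left out of the sequences shown but not of the counts. The motif CANNTG was in 2 of the 7, Id2 with 1 match and Bmp4 with 3, against 66.0%. The 7 windows were rich in G and C, from 62.8% to 78.8% against a median of 52.0% over all promoters, and GGCGCC itself holds no other bases.

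Outside the 9 genes, the pathway was described with a list of 68 further genes, of which 48 passed the filter on low counts. At an adjusted p under 0.05 in edgeR, 24 were higher and 2 lower, and 22 did not pass, where 17.6% of all tested genes were called higher and 16.2% lower. In 9 of the 48, 7 of them called higher, the WT libraries alone would not have met the filter, so these counts are no measure of the whole list. The list and its parts by role below were also chosen with earlier results of these data known. The number of calls rested on the WT libraries. Without WT replicate 1, 4 genes of the list were called higher (402 of all genes), and without WT replicate 2, 6 were (585 of all genes), among them in both cases Acvrl1, Crim1, Dlx3 and Dusp9, and none was called lower. With library totals 36 were higher and 0 lower. The other 20 were not tested, of which Hjv is not in the table under that name and the rest had at most 24 counts in any library.

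Of the other ligand genes, Bmp8b and Bmp7 had the most counts, and they moved in opposite directions. Bmp8b fell from 948 and 996 counts to 725 and 616, with a log2 fold change of -0.87 (SE 0.17, adjusted p = 0.0101 in edgeR). Bmp7 rose from 100 and 109 counts to 233 and 332 (1.11, SE 0.28, adjusted p = 0.0220), and Bmp6 from 10 and 18 to 109 and 56 (2.23, SE 0.48, adjusted p = 0.0137). Bmp6 passed the filter on low counts only through the Pim3-/- libraries. Bmp2, the closest relative of Bmp4, was not tested, with 0 and 3 counts in WT, against 10 and 7 in the clones. Among the enzymes that mature or release ligands, Furin, a proprotein convertase, went from 241 and 298 counts to 659 and 902 (1.21, adjusted p = 0.00839), and Pcsk6, a convertase of the same family, from 758 and 1070 to 2205 and 1637 (0.75, adjusted p = 0.0235). The calls of these 5 genes were lost when either WT library was left out, and with library totals that of Bmp8b was lost too (-0.42, adjusted p = 0.0937).

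The receptor genes that BMP4 uses together with Bmpr1a were not shown to change. Bmpr2, the type II receptor, had 5.90 and 6.32 CPM in WT and 7.27 and 7.72 CPM in Pim3-/- (log2 fold change 0.29, interval -0.28 to 0.87, adjusted p = 0.378 in edgeR). The type II receptors Acvr2a (0.21, interval -0.45 to 0.86) and Acvr2b (0.60, interval 0.02 to 1.18) had adjusted p-values of 0.590 and 0.0998, and the type I receptor Acvr1 (0.69, interval 0.16 to 1.23) one of 0.0517. In each of these 4 genes both Pim3-/- libraries were above both WT libraries, as in 38.3% of all tested genes, and library totals brought Bmpr2 (0.74, adjusted p = 0.0499), Acvr1 (1.14, adjusted p = 0.0087) and Acvr2b (1.05, adjusted p = 0.0160) past the test. Acvr1 was also called with at least 10 counts asked of every library (adjusted p = 0.0386 in edgeR). Its log2 fold change was 0.69 without Pim3-/- replicate 1 and 0.66 without Pim3-/- replicate 2. For Acvr2b these values were 0.75 and 0.39. Such fits take their spread from the WT pair, so that their calls are not comparable with those from 4 libraries. Of the 9 tested receptor and co-receptor genes 3 were called higher, against 17.6% of all tested genes. Eng, which encodes the co-receptor endoglin and is named after its values were seen, went from 329 and 409 counts to 1331 and 1080 (1.38, adjusted p = 0.00408), a call lost without WT replicate 1. Acvrl1, a type I receptor known from endothelium, went from 34 and 40 counts to 237 and 292 (2.51, SE 0.29, adjusted p = 0.00361), and Bmpr1b, a type I receptor like Bmpr1a, from 5 and 7 counts to 34 and 40 (2.28, SE 0.50, adjusted p = 0.0137). The call of Bmpr1b was lost when either WT library was left out, and this gene passed the filter on low counts only through the Pim3-/- libraries.

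Antagonists of the pathway did not move one way. Bambi, which encodes a decoy receptor without a kinase domain and is itself a target of BMP signals, fell from 413 and 476 counts to 307 and 291. Its log2 fold change was -0.90 (SE 0.19, adjusted p = 0.0123 in edgeR), opposite in sign to the targets Id1 and Smad7. Crim1, a membrane protein that binds BMPs, rose from 29 and 28 counts to 248 and 132 (2.39, SE 0.39, adjusted p = 0.00649). Nbl1, a secreted BMP antagonist, had 4 and 3 counts in WT, against 27 and 27 in the clones (adjusted p = 0.0138), too few in WT for a firm fold change. Of 10 tested antagonists 4 were called higher, 1 lower and 5 neither, among them Nog and Chrd. Over all tested genes 17.6% were called higher and 16.2% lower. Nog and Nbl1 passed the filter on low counts only through the Pim3-/- libraries, and Fst only through the WT libraries. The calls of Bambi and Nbl1 were lost when either WT library was left out, and that of Bambi also with library totals (-0.45, adjusted p = 0.111).

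Downstream of the receptors, Smad4, the partner of all signal-carrying SMADs, had 48.6 and 55.7 CPM in WT and 60.1 and 56.3 CPM in Pim3-/- (log2 fold change 0.16, interval -0.22 to 0.54, adjusted p = 0.477 in edgeR). Smad5, which acts beside Smad1, was at 28.0 and 27.3 CPM against 28.3 and 31.2 CPM (0.10, interval -0.28 to 0.49, adjusted p = 0.653). Smad9 was scarce, with 7 and 10 counts in WT, against 43 and 68 in the clones, and was called higher (2.37, SE 0.49, adjusted p = 0.0119). It passed the filter on low counts only through the Pim3-/- libraries. Skil and Ski encode co-repressors that bind SMADs. Skil rose from 412 and 695 counts to 1866 and 2218 (1.58, SE 0.22, adjusted p = 0.00479) and Ski from 724 and 995 to 1780 and 1719 (0.71, adjusted p = 0.0168). Of 8 tested intracellular regulators 5 were called higher and 3 did not pass, against 17.6% of all tested genes called higher. Without WT replicate 1 the calls of all 5 were lost (Skil at an adjusted p of 0.0527), and without WT replicate 2 only Skil was called. The call of Smad9 was lost when either WT library was left out. With library totals Smad4 (0.61, adjusted p = 0.0299) and Smad5 (0.56, adjusted p = 0.0391) passed the test, near the median of all genes under that scaling.

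**Figure D5:**
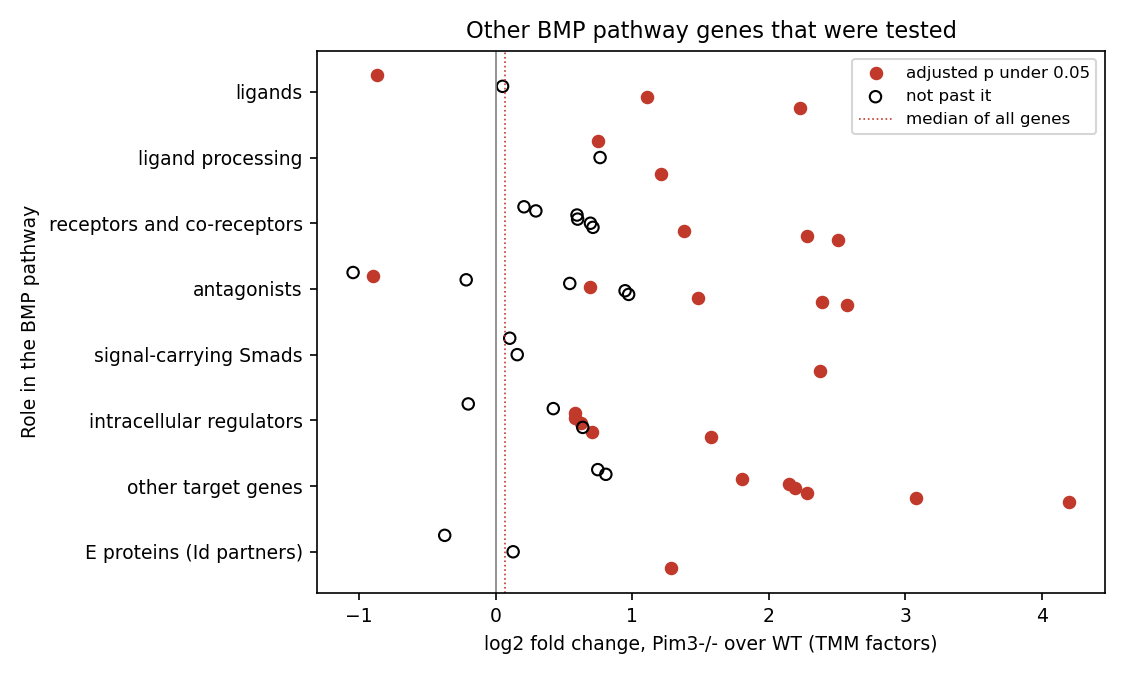
Log2 fold change of Pim3-/- over WT (TMM factors) for the 48 further BMP pathway genes that were tested, grouped by role, with filled points at an adjusted p under 0.05 and open points for the rest. The target genes lie between 0.75 and 4.20, and Bmp8b and Bambi are the 2 filled points below 0.

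Of 8 further target genes tested, 6 were called higher and 2 did not pass, where 17.6% of all tested genes were called higher. This list was chosen with earlier results of these data known, so that its share of calls does not test the targets as a set. Dlx3, Atoh8 and Gata3 passed the filter on low counts only through the Pim3-/- libraries, and with either WT library left out only Dlx3 and Dusp9 of the 6 were called. Dlx3 rose from 7 and 16 counts to 335 and 196 (4.20, SE 0.44, adjusted p = 0.00304 in edgeR). Atoh8 had 2 and 1 counts in WT, against 13 and 21 in the clones (adjusted p = 0.0195), a call that was lost when either WT library was left out and in DESeq2 (adjusted p = 0.0763). Dlx3, Gata2 and Gata3, all called higher, are also known as regulators of trophoblast. The trophoblast marker list did not move one way, with only Ascl2 of 6 tested markers called higher. Tfap2c (-0.39), Krt8 (-0.17) and Krt18 (-0.58) had negative log2 fold changes and Krt7 and Hand1 positive ones, none past the test. Cdx2 and Elf5 were not tested. The paper reports a rise of trophoblast stem cell genes after Pim3 deletion, by gene set enrichment over a published list. That list was not used here, and the few markers above do not test it. Gata2 and Gata3 are named here after their values were seen. Msx1 and Hey1 did not pass the test, with adjusted p-values of 0.263 and 0.0797. Of the 3 genes of E proteins, the partners of the Id proteins, 1 was called higher. Tcf3, which encodes E2A, had 141 and 139 CPM in WT and 115 and 101 CPM in Pim3-/- (-0.37, interval -0.76 to 0.02, adjusted p = 0.120), and with library totals its sign turned, to 0.08. Without Pim3-/- replicate 1 it was called lower (-0.48, adjusted p = 0.00307), with the spread taken from the WT pair. Tcf4 had 23.0 and 25.3 CPM in WT and 26.8 and 26.1 CPM in Pim3-/- (0.13, interval -0.27 to 0.52, adjusted p = 0.582), and with library totals it passed the test (0.58, adjusted p = 0.0405). Tcf12, the gene of the E protein HEB, rose from 156 and 250 counts to 496 and 728 (1.28, SE 0.27, adjusted p = 0.0126), a call lost when either WT library was left out.

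The profile over the 4 libraries, as log2 CPM centred on each gene's mean, was compared with those of 9659 genes of at least 10 CPM. Among the nearest to Bmp4 were Pot1a and Dcaf4, at root mean square distances (log2 CPM) of 0.011 and 0.0155, and Bmpr1a had rank 158 at 0.0784. Among the nearest to Id1 were Cpd and Phf7, at 0.0161 and 0.0478. The other members were far down the order of Id1, with Smad1 at rank 1131 (0.284), Smad6 at rank 1459 (0.320), Smad7 at rank 3314 (0.496), Id3 at rank 8253 (0.982) and Id2 at rank 8673 (1.04), and Id4 was below the CPM minimum. With 4 libraries many genes share a profile, so that these distances only describe how far the sizes of change differed among Id1, Id2 and Id3.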

How the data were processed

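The authors deposited raw read counts per gene for the 4 libraries. The study's methods name Cutadapt, Hisat2 and mm10 with Ensembl genes, while the submitters' processing notes name Trim Galore, STAR, featureCounts and GRCm38. Which of these made the table, and how strand and multi-mapped reads were treated, is not given in the sources used here. Groups were taken from the genotype labels. Genes were kept by filterByExpr of edgeR 4.0.16 (R 4.3.3; minimum count 10, minimum total 15), scaled with TMM factors, and tested for Pim3-/- against WT with the quasi-likelihood test, with Benjamini-Hochberg adjustment over 18444 genes and calls at 0.05. Intervals are 95%. The p-values rest on the spread between these 2 cultures and 2 clones, where the spread of each gene is drawn towards that of all genes. Named further pathway genes were, in each role, up to 2 higher and 2 lower called genes of the largest fold change and 10 or more counts in each library of the group where they were higher, and all signal-carrying Smads, all E proteins, Bmpr2, Acvr1, Acvr2a and Acvr2b. Others are named for a count of 5 or fewer or after their values were seen. The 9 genes and all lists were chosen with earlier results of these data known. Alternatives were size factors of DESeq2 1.42.0, library totals, other filters, a replicate block, the Wald test of DESeq2 and each library left out. Scripts were tested on simulated data. Positions are those of GENCODE on GRCm38, CPM per kb uses its merged exons, and promoters are from RefSeq on GRCm38.p6. A table of transposable elements was not used here, and some genes near in profile are not reported here. Figures were drawn with matplotlib 3.10.9.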

Additional observations from a re-analysis of the deposited data

How the results depend on the processing

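With 2 libraries per group, small changes and genes of few counts were not resolved, and a lone library in a group was assumed to vary like the other group. The fits that leave out a Pim3-/- library take their spread from the close WT pair, shared over all genes rather than estimated gene by gene. Their calls are therefore not comparable with those from 4 libraries. Of the 9 genes, 5 were called higher and 0 lower, with 5 or 6 higher under the other settings and 3 to 6 higher with 1 library left out (0 lower throughout). With 1 library left out in turn, the further pathway genes gave 4 to 35 higher and 0 to 4 lower calls, and all tested genes 402 to 5393 higher and 373 to 5255 lower calls, against 3246 and 2987 with 4 libraries. Leaving out any of the 4 libraries moved the counts over all genes, down for each WT library and up for each Pim3-/- library. Library totals gave 6606 higher and 1092 lower genes, and 0 lower pathway genes. Among the genes recomputed, 4 changed sign. Bmp4 turned to 0.40 with library totals and 0.0266 with at least 10 counts in every library, Tcf3 to 0.0792 with library totals, and with 1 library left out Bmp4 ranged from -0.21 to 0.0554, Bmpr1a from -0.0679 to 0.14 and Id4 from -0.85 to 1.62. The cause was not tested. The Wald test of DESeq2 called 2556 genes higher and 3197 lower, among them the 5 of the 9. Replicate numbers pair nothing by design, and deviations of same-numbered libraries correlated at 0.0196 across genes. With a replicate block 5 of the 9 genes were called higher, and of all genes 3403 higher and 3272 lower, and the block changed no call among the 9.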

Other observations

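Among the further pathway genes, Fstl1 and Bmp15, named after their values were seen, were high in 1 Pim3-/- clone alone. Fstl1, which encodes a secreted follistatin-like glycoprotein, had 829 and 1012 counts in WT, against 679 and 2649 in the clones (log2 fold change 0.54, adjusted p = 0.443 in edgeR). Bmp15, an oocyte ligand, had 1 and 0 counts in WT, against 0 and 24 in the clones, and was not tested. In both genes Pim3-/- replicate 2 was the high library, as in Id4, and the other clone was at or below the WT range. Id2 was also higher in Pim3-/- replicate 2, but both clones lay above WT. Other genes of the list were higher in Pim3-/- replicate 1 than in replicate 2, such as Crim1 (248 and 132 counts) and Msx2 (304 and 133 counts).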
